A study of Mus musculus with 6 samples.

Results

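Mdm2, Trp53 and 7 further targets of p53 were compared between macrophages of infarcted mouse hearts with and without the α5 integrin chain. The 9 genes were found by symbol among the 54532 genes of the deposited count table, and all 9 were among the 14522 genes with enough counts to be tested. Mdm2 was chosen on its difference between the groups in these same libraries, because it lies near the Cre insertion in Lyz2. The other 8 genes, p53 itself and familiar targets of it, were listed beside Mdm2 with earlier results of these libraries known. Their fold changes, standard errors and calls are therefore a description of these libraries, and no p-value is given for them.

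All mice were of the C57BL/6 strain, were 12 weeks old and had undergone 7 days of permanent coronary occlusion. The 3 ITGA5 fl/fl libraries came from mice whose Itga5 alleles are flanked by recombination sites and intact. The 3 Myα5KO libraries came from mice with the same floxed alleles in which the LyzM-Cre driver, expressed in monocytes, macrophages and granulocytes, deletes Itga5. The labels name no Cre allele for the ITGA5 fl/fl mice, so loss of Itga5, presence of the Cre allele and inheritance of the chromosome segment around it cannot be told apart in this comparison. Cells of single hearts were depleted of Ly6G+ neutrophils and then selected for CD11b on magnetic columns. In such bulk libraries, fewer cells of a type and less RNA per cell cannot be told apart.

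Total counts per library lay between 15424451 and 18419287. Itga5 was reduced to 8.02% of the ITGA5 fl/fl level (log2 fold change -3.64, SE 0.079, edgeR adjusted p 4.42e-12), and its 47.1 to 50.0 CPM in Myα5KO libraries lay below the 568 to 653 CPM of all ITGA5 fl/fl libraries. CPM are counts made comparable between libraries by their TMM-scaled totals. The macrophage marker list summed to 13060 to 13350 CPM in ITGA5 fl/fl and 12510 to 13200 CPM in Myα5KO libraries, and 4 of its 12 genes (Fcgr1, Cx3cr1, Ccr2 and Ly6c2) were higher in the latter. Of 8 tested neutrophil markers, 5 were higher in Myα5KO, and the list summed to 80.1 to 115 CPM against 164 to 264 CPM, the highest value being that of Myα5KO replicate 3. The defining markers Ly6g and Cxcr2 stayed below the count filter, at no more than 0.469 CPM in any library. Fibroblast markers summed to 1726 to 2017 CPM in ITGA5 fl/fl and 1301 to 1670 CPM in Myα5KO (2 of 10 lower), and cardiomyocyte markers to 25.2 to 27.0 and 15.9 to 20.5 CPM (3 of 9 tested lower). Of T, NK and B cell markers, 2 of 7 tested were higher in Myα5KO (70.5 to 109 against 110 to 176 CPM), and 1 of 8 endothelial markers (335 to 380 against 363 to 412 CPM) and 1 of 7 dendritic cell markers (41.0 to 60.0 against 56.1 to 63.0 CPM) were higher. No marker was at 0 in every library. Markers counted here as higher or lower passed an edgeR adjusted p of 0.05, as did 8.75% of all genes tested.

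p53, the product of Trp53, is a transcription factor that accumulates after DNA damage and other stress and then induces genes that halt the cell cycle, repair DNA or start apoptosis. MDM2 is the ubiquitin ligase that marks p53 for degradation. Its gene is itself a p53 target, which closes a negative feedback loop. p53 is controlled mainly as a protein, which these libraries do not measure, and several of its targets, Cdkn1a above all, are also induced by other factors in macrophages.

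p53 binds a pair of half-sites, each made of purines, then C, A or T, A or T and G, then pyrimidines. The RefSeq promoter table (build GRCm38.p6) held 8 of the 9 genes, and the 250 bases upstream of each listed start were searched for the consensus p53 half-site and for the full 20-base site of adjoining half-sites with at most 1 mismatch. The consensus is its own reverse complement, so a match holds for both strands, and a full site contains the letters of half-sites. Half-sites lay upstream of 6 of the 8 genes (Mdm2, Trp53, Cdkn1a, Ccng1, Bax and Sesn1), against 8.2% of the 27025 genes in the table. A full site lay upstream of 2 of the 8 (Cdkn1a and Ccng1), against 0.0925% of all genes. Of 41 other p53 targets described further on that the table held, 9 had a half-site and 1 a full site. Windows of 4 genes are shown, those of Mdm2, Cdkn1a and Sesn1, which passed an edgeR adjusted p of 0.05, and, as the other full site, Ccng1, with half-sites and full sites in capitals. The Mdm2 window is chr10:117710759-117711008 (minus strand), the Cdkn1a window chr17:29090729-29090978 (plus strand, the first of its starts), the Ccng1 window chr11:40755287-40755536 (minus strand) and the Sesn1 window chr10:41887189-41887438 (plus strand, the second of its starts), each written 5′ to 3′ and ending at the base before the start.
Mdm2: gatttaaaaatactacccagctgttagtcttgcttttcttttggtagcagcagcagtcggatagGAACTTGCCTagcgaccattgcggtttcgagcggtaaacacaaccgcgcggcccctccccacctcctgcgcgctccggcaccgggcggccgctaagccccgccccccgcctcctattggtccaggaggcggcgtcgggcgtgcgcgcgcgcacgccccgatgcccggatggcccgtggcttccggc
Cdkn1a: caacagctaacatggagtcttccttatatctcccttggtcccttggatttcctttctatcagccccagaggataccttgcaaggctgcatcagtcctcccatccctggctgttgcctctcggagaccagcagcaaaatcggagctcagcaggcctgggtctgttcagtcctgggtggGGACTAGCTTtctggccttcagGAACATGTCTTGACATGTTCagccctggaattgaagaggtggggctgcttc
Ccng1: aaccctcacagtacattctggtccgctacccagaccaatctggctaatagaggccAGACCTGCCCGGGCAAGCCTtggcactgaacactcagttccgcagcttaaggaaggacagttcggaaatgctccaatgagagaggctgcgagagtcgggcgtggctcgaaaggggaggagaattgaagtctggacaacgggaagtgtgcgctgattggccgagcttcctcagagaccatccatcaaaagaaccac
Sesn1: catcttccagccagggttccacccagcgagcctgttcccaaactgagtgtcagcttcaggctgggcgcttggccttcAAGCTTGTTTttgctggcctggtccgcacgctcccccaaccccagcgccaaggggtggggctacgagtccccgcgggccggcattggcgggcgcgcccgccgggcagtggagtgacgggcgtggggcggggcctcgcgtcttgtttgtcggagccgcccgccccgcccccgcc
The Mdm2 window holds 1 half-site, whose first base lies 186 bases before the start. Bases after the starts, the introns of Mdm2 among them, were not searched, so p53 sites there would be missed. The Cdkn1a window holds a full site beginning 51 bases before the start and a further half-site at 73 bases. The Ccng1 full site begins 195 bases and the Sesn1 half-site 173 bases before the start. The windows of the other listed starts of Cdkn1a (chr17:29093519-29093768) and Sesn1 (chr10:41810324-41810573) held neither a half-site nor a full site. Such matches are descriptions of the letters and not evidence of binding in these cells.

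Mdm2 (ENSMUSG00000020184, a protein-coding gene on the minus strand of GRCm38 chromosome 10, 117688875 to 117710758) fell in Myα5KO macrophages. Its level was 407, 431 and 421 CPM in ITGA5 fl/fl and 302, 328 and 300 CPM in Myα5KO replicates 1 to 3. The Myα5KO libraries thus held 72.0%, 78.3% and 71.5% of the ITGA5 fl/fl mean, and the groups did not overlap. The log2 fold change was -0.44 (SE 0.067, 95% confidence interval -0.58 to -0.29), and Mdm2 was called, a word used throughout for genes whose edgeR adjusted p did not exceed 0.05.

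Trp53 (ENSMUSG00000059552, chromosome 11, 69580359 to 69591873, plus strand) encodes the factor that MDM2 restrains. It measured 66.2, 76.2 and 68.4 CPM in ITGA5 fl/fl and 66.2, 68.2 and 76.1 CPM in Myα5KO libraries. The groups overlapped over nearly their whole range. With a log2 fold change of -0.002 (SE 0.077, 95% interval -0.17 to 0.16), Trp53 was not called, and the interval holds differences of either sign.

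**Figure D1:**
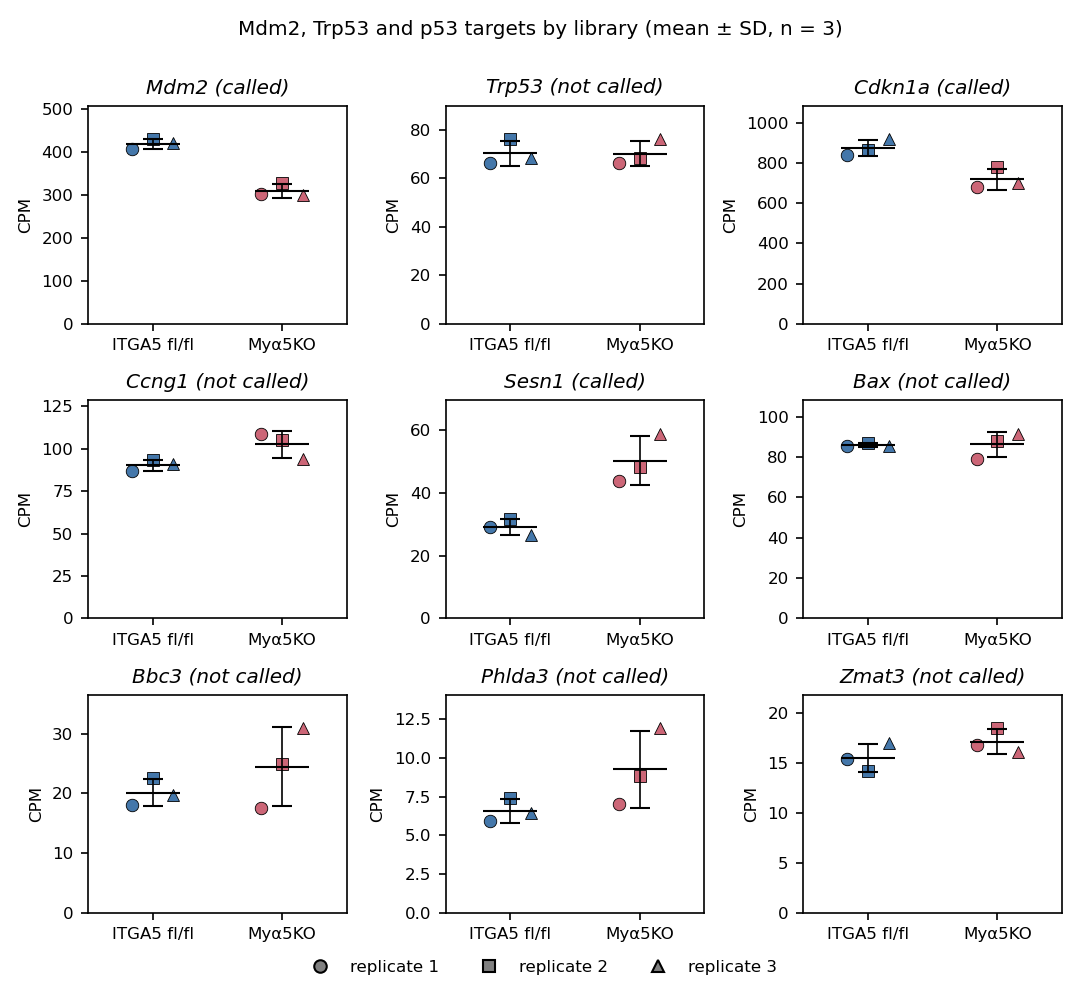
TMM-scaled CPM (y axes, each from 0) of the 9 genes in the 3 ITGA5 fl/fl (blue) and 3 Myα5KO (red) libraries, with the replicate number given by the symbol and the mean ± SD by bars. Mdm2 and Cdkn1a are lower and Sesn1 and Ccng1 higher in all 3 Myα5KO libraries, and Bbc3 and Phlda3 spread most, from 17.6 to 31.0 and from 7.03 to 11.9 CPM in Myα5KO.

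Among the targets that act on the cell cycle and growth, Cdkn1a fell with Mdm2, Sesn1 rose, and Ccng1 was higher without being called. Cdkn1a (ENSMUSG00000023067, chromosome 17, 29090976 to 29100727, plus strand) encodes p21, the inhibitor of cyclin-dependent kinases and the main mediator of p53-dependent arrest. It measured 842, 864 and 920 CPM in ITGA5 fl/fl and 682, 779 and 698 CPM in Myα5KO libraries. All 3 Myα5KO libraries lay below the lowest ITGA5 fl/fl library, at 77.9%, 89.0% and 79.8% of the ITGA5 fl/fl mean. The log2 fold change was -0.28 (SE 0.074, 95% interval -0.44 to -0.12). This call was the least stable of the 3. It was lost when any library other than Myα5KO replicate 2 was left out, with fold changes of -0.31, -0.29 and -0.25 without ITGA5 fl/fl replicates 1, 2 and 3 and of -0.25 and -0.26 without Myα5KO replicates 1 and 3, and it was lost with library-size scaling (-0.20) and on both FPKM scales (-0.29 each). The span of a predicted transcript on the opposite strand, AC167363.2, overlaps 1046 bases of the Cdkn1a span, with exons not examined. It held 83 to 130 counts per library beside 12567 to 16160 for Cdkn1a.

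Sesn1 (ENSMUSG00000038332, chromosome 10, 41809935 to 41908424, plus strand) encodes sestrin 1, a stress-induced inhibitor of the growth kinase mTORC1. It measured 29.0, 31.6 and 26.6 CPM in ITGA5 fl/fl and 43.8, 48.1 and 58.9 CPM in Myα5KO libraries. Every Myα5KO library exceeded every ITGA5 fl/fl library and stood at 151% to 203% of their mean, with the highest value in replicate 3. The log2 fold change was 0.79 (SE 0.11, 95% interval 0.56 to 1.02), and it was 0.66 without that library. Sesn1 lies on the same chromosome as Lyz2 but 75368907 bases from it.

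Ccng1 (ENSMUSG00000020326, chromosome 11, 40748552 to 40755311, minus strand) encodes cyclin G1, a p53 target that recruits a phosphatase to MDM2. It measured 86.8, 93.4 and 90.8 CPM in ITGA5 fl/fl and 109, 105 and 93.9 CPM in Myα5KO libraries. The groups did not overlap, but replicate 3 of Myα5KO exceeded the highest ITGA5 fl/fl library only narrowly. The log2 fold change of 0.18 (SE 0.070, 95% interval 0.03 to 0.34) was not called, although it was with library-size scaling (0.27) and without Myα5KO replicate 3 (0.25).

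Among the targets that promote apoptosis, none was called. Bax (ENSMUSG00000003873, chromosome 7, 45461697 to 45466898, minus strand) encodes a pore former of the mitochondrial outer membrane. It measured 85.5, 86.9 and 85.5 CPM in ITGA5 fl/fl and 79.2, 87.8 and 91.6 CPM in Myα5KO libraries. The Myα5KO values lay on both sides of the narrow ITGA5 fl/fl range, and the log2 fold change was 0.004 (SE 0.068, 95% interval -0.14 to 0.15).

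Bbc3 (ENSMUSG00000002083, chromosome 7, 16308393 to 16318205, plus strand) encodes PUMA, a BH3-only protein that activates BAX. It measured 18.1, 22.6 and 19.7 CPM in ITGA5 fl/fl and 17.6, 24.9 and 31.0 CPM in Myα5KO libraries, a log2 fold change of 0.28 (SE 0.16, 95% interval -0.06 to 0.63). Phlda3 (ENSMUSG00000041801, chromosome 1, 135766119 to 135769136, plus strand) encodes an inhibitor of the kinase AKT. It measured 5.90, 7.40 and 6.43 CPM in ITGA5 fl/fl and 7.03, 8.83 and 11.9 CPM in Myα5KO libraries, a log2 fold change of 0.49 (SE 0.18, 95% interval 0.10 to 0.88). In both genes Myα5KO replicate 1 lay within the ITGA5 fl/fl range or below it and replicate 3 was the highest of all 6 libraries. Without replicate 1 both were called, at 0.47 and 0.65, and without replicate 3 the fold changes were 0.08 and 0.27. Replicate 3 was also the library with the highest neutrophil marker sum, 264 CPM against 181 and 164 CPM in Myα5KO replicates 1 and 2. Among the tested genes of that list, S100a8, S100a9, Ngp, Ltf and Camp were highest in Myα5KO replicate 3. Mmp9 was instead highest in Myα5KO replicate 2. Mmp8 and Retnlg were lowest of the Myα5KO libraries in replicate 3, at 7.94 and 2.84 CPM against 10.9 and 3.41 CPM in replicate 1. The sum is thus carried by part of the list and is not a measure of neutrophils alone. The part of neutrophils in Sesn1, Bbc3 and Phlda3 was not tested.

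Zmat3 (ENSMUSG00000027663, chromosome 3, 32334792 to 32366014, minus strand) encodes an RNA-binding zinc finger protein. It measured 15.4, 14.2 and 17.0 CPM in ITGA5 fl/fl and 16.8, 18.5 and 16.1 CPM in Myα5KO libraries. The ranges overlapped, and the log2 fold change was 0.14 (SE 0.10, 95% interval -0.08 to 0.37).

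Of the 9 genes, 3 were called, 1 higher (Sesn1) and 2 lower (Mdm2 and Cdkn1a), and their median log2 fold change was 0.14. Over all genes tested, 8.75% were called, with 3.56% higher and 5.19% lower in Myα5KO, and the median was 0.02. With library-size scaling in place of TMM the split over all genes turned from 517 higher and 754 lower to 1212 higher and 518 lower, and that of the 9 genes to 2 higher and 1 lower. Groups did not overlap for 4 of the 9 genes (Mdm2, Cdkn1a, Ccng1 and Sesn1) and for 28.6% of all genes tested. Since Mdm2 was chosen on this contrast and the others with its results known, nothing is read from these shares.

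In order to see the 9 genes beside the rest of the pathway, 52 other p53 targets, grouped by their known roles, were examined. The lists were written with earlier results of these libraries known. Of the 49 tested, 4 were called higher and 6 lower (20.4%, beside 8.75% of all genes tested), and their median log2 fold change was 0.08. Groups did not overlap for 24 of the 49, 15 higher and 9 lower, beside 28.6% of all genes tested. Zfp365, Perp and Sco2 had too few counts. With library-size scaling the split became 10 higher and 5 lower, on the log2(FPKM + 1) scale 0 higher and 3 lower, and without ITGA5 fl/fl replicate 3 it was 1 higher and 5 lower.

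**Figure D2:**
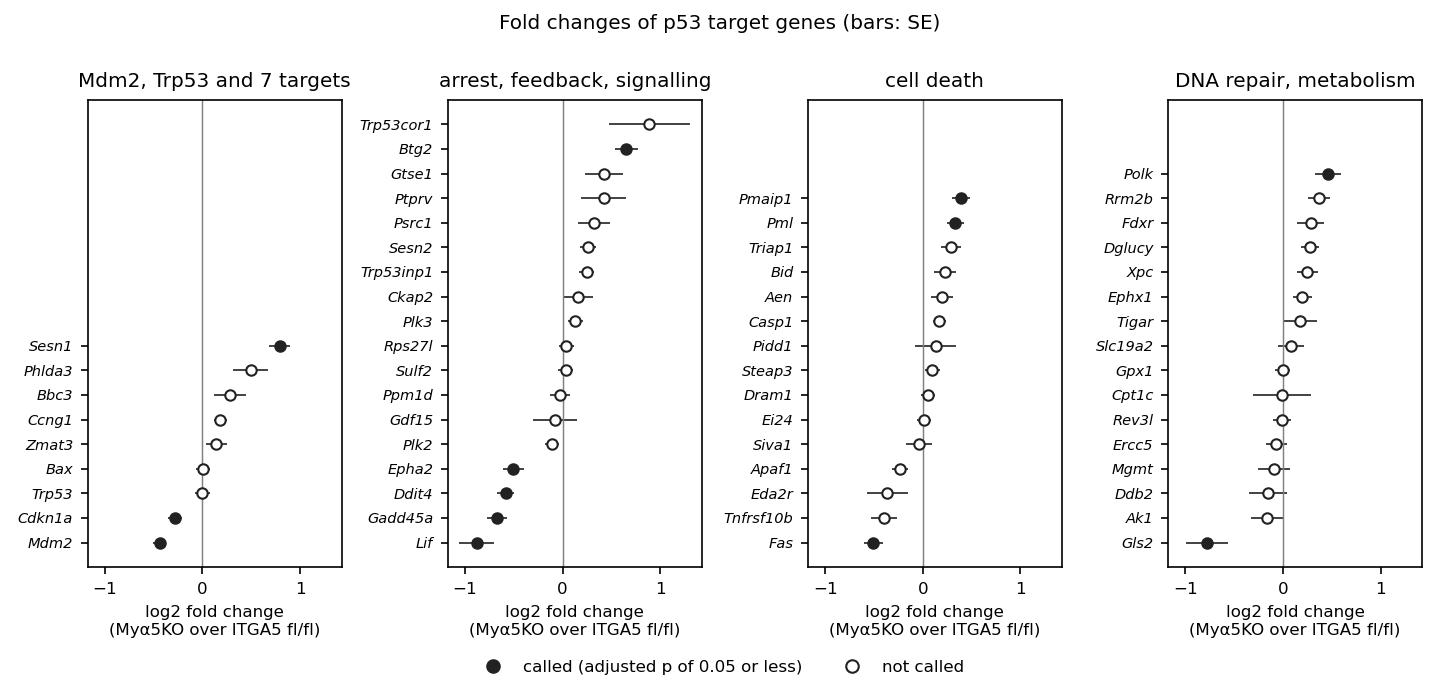
Log2 fold change, Myα5KO over ITGA5 fl/fl (x axes), of the 9 genes and of 49 other p53 targets in 3 role groups, with bars for the SE and filled points for called genes. Called genes lie on both sides of 0 in each group, from -0.88 (Lif) to 0.65 (Btg2) among the other targets, while most targets lie near 0.

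Of 18 tested targets in cell cycle arrest, feedback and signalling, 1 was higher and 4 were lower. Btg2, an antiproliferative regulator of mRNA decay, rose from 276, 281 and 236 CPM to 333, 412 and 500 CPM (log2 fold change 0.65, SE 0.12, edgeR adjusted p 0.00495). As for Sesn1, its highest value was in Myα5KO replicate 3. Gadd45a, a growth arrest gene named for its induction by DNA damage, fell from 27.0, 28.0 and 30.9 CPM to 16.8, 16.3 and 20.8 CPM (-0.67, SE 0.11, adjusted p 0.00197). Ddit4, an inhibitor of mTORC1 also induced by hypoxia, fell from 45.7, 53.6 and 48.2 CPM to 30.4, 35.6 and 32.6 CPM (-0.58, SE 0.085, adjusted p 0.00124). Ddit4 lies on the same chromosome as Lyz2, 57325497 bases from it. The groups of Ddit4 did not overlap, as was so for the other called genes of this list. Over the 18 tested targets of the list, 10 had groups that did not overlap, beside 28.6% of all genes tested. Lif, a cytokine, fell from 64.1, 128 and 110 CPM to 53.6, 60.7 and 50.2 CPM (-0.88, SE 0.18, adjusted p 0.00842). Epha2, a receptor tyrosine kinase, fell from 38.3, 53.4 and 41.7 CPM to 32.2, 29.7 and 32.3 CPM (-0.50, SE 0.11, adjusted p 0.0112). Gdf15, a stress-induced cytokine with the highest FPKM of this group in ITGA5 fl/fl libraries, was not called (-0.08, SE 0.23) and ranged from 264 to 562 CPM in Myα5KO libraries.

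Of 15 tested targets in cell death, 2 were higher and 1 was lower. Fas, the death receptor for FAS ligand, fell from 22.3, 23.9 and 23.4 CPM to 15.6, 18.3 and 15.1 CPM (-0.51, SE 0.098, edgeR adjusted p 0.00671). Pmaip1, which encodes the BH3-only protein NOXA, rose from 82.2, 88.1 and 75.6 CPM to 94.7, 103 and 124 CPM (0.39, SE 0.093, adjusted p 0.0209), a call lost without ITGA5 fl/fl replicate 3 (0.33). Pml, the organizer of nuclear bodies, rose from 37.7, 48.5 and 41.2 CPM to 54.0, 53.1 and 53.3 CPM (0.33, SE 0.086, adjusted p 0.0293). The Pml call held only without ITGA5 fl/fl replicate 2 (0.44) when single libraries were left out, with values from 0.26 to 0.34 in the other 5. The death receptor and NOXA thus differed in direction, and BAX and PUMA transcripts, described above, were not called.

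Of 16 tested targets in DNA repair and metabolism, 1 was higher and 1 was lower, and neither call was stable. Polk, a translesion DNA polymerase, had 10.6, 10.7 and 9.39 CPM in ITGA5 fl/fl and 16.1, 11.4 and 14.7 CPM in Myα5KO libraries (0.46, SE 0.13, edgeR adjusted p 0.0492). Gls2, a mitochondrial glutaminase, had 3.28, 3.76 and 3.07 CPM against 2.24, 1.61 and 2.05 CPM (-0.78, SE 0.22, adjusted p 0.0396). Gls2 lies on the same chromosome as Lyz2, 10912136 bases from it. Polk was called only without Myα5KO replicate 2 (0.59) and Gls2 only without Myα5KO replicate 1 (-0.89) when single libraries were left out, with values from 0.35 to 0.49 and from -0.84 to -0.66 in the other fits. Gpx1, a peroxide-reducing enzyme and the highest expressed gene of the group at 500 FPKM in ITGA5 fl/fl, differed by a log2 fold change of 0.00 (SE 0.076).

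Upstream of p53, 28 of 30 regulators were tested, since the p53 relatives Trp63 and Trp73 had too few counts, and 2 were called, both higher, a share of 7.14% beside 8.75% of all genes tested. Chek2, a checkpoint kinase that phosphorylates p53, rose from 9.92, 10.2 and 10.4 CPM to 14.1, 12.9 and 13.0 CPM (log2 fold change 0.39, SE 0.11, edgeR adjusted p 0.037). Trim24, a ubiquitin ligase for p53, rose from 29.6, 27.8 and 24.5 CPM to 31.6, 36.1 and 35.7 CPM (0.34, SE 0.091, adjusted p 0.0359). Neither call was stable to the libraries used: Chek2 lost it when any single library was left out (0.34 to 0.41), and Trim24 lost it without ITGA5 fl/fl replicates 2 (0.35) or 3 (0.26) and Myα5KO replicates 2 (0.30) or 3 (0.31). Of all 28, none was called without ITGA5 fl/fl replicate 2 or 3, and 1 without Myα5KO replicate 2 (Ppp1r13l, -0.53) or 3 (Rpl23, -0.27). Mdm4, the MDM2 relative that binds and inhibits p53, had 119, 118 and 121 CPM in ITGA5 fl/fl and 123, 118 and 129 CPM in Myα5KO libraries (0.05, SE 0.062, adjusted p 0.691). Unlike Mdm2, its groups overlapped. Rpl5, Rpl11 and Rpl23, ribosomal proteins that bind MDM2 when ribosome assembly is disturbed, had fold changes of -0.11, -0.10 and -0.14 and were not called.

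p21 lowers cell cycle genes through the DREAM repressor complex, and 18 such genes were examined. By edgeR none was called, beside 8.75% of all genes tested, a share at which few of 18 genes would be called. An unadjusted p under 0.05 was found for 3. The fold change was positive for 12 and negative for 6, with a median log2 fold change of 0.05. DESeq2 and limma-voom called none. Cdc20, an activator of the anaphase-promoting complex, came nearest, with 9.32, 9.52 and 8.37 CPM in ITGA5 fl/fl and 11.5, 11.8 and 12.2 CPM in Myα5KO libraries (0.38, SE 0.11, adjusted p 0.0512). It was called with library-size scaling (0.46) and on both FPKM scales (0.32 and 0.37). Mki67, the proliferation marker and the gene with the highest FPKM of this list in ITGA5 fl/fl libraries, had 159, 147 and 177 CPM against 158, 151 and 125 CPM (-0.16, SE 0.092). Under TMM scaling no gene of this list was called beside the lower Cdkn1a level, and a link between them was not tested.

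**Figure D3:**
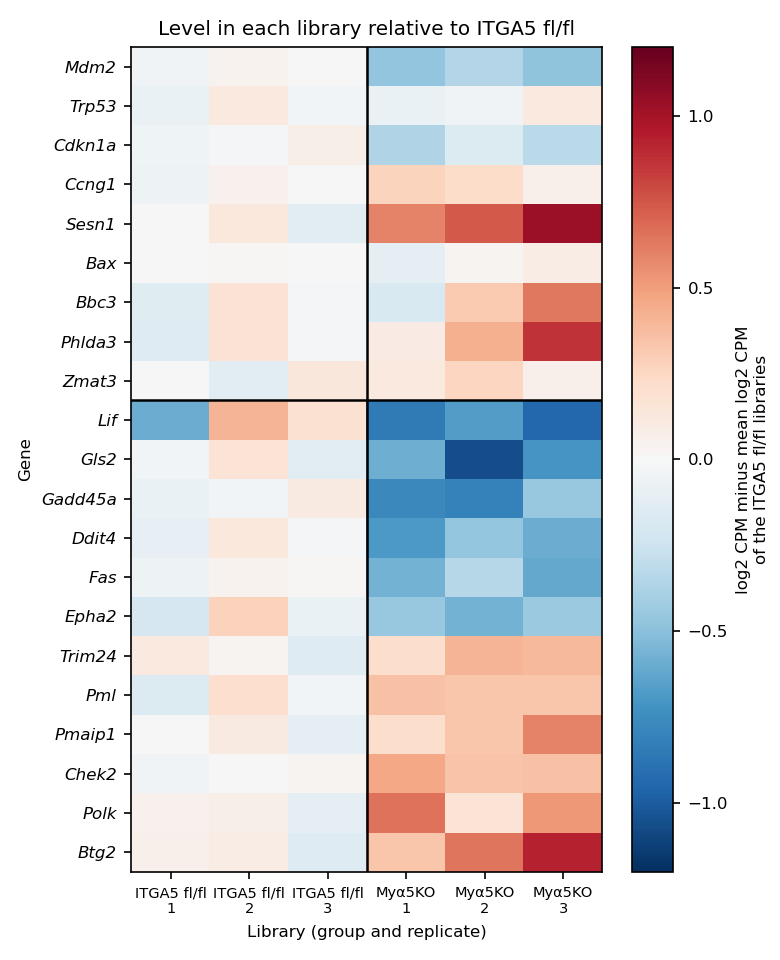
Log2 CPM in each of the 6 libraries (columns) minus the mean of the 3 ITGA5 fl/fl libraries, for the 9 genes (above the line) and the 12 other p53 targets and regulators called in the comparison (below it). Sesn1, Bbc3, Phlda3, Btg2 and Pmaip1 share their highest value in Myα5KO replicate 3, and the 12 genes below the line were selected by their call, so their contrast between groups is by choice.

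The Cre sequence of the LyzM-Cre driver sits in Lyz2, whose neighbourhood on chromosome 10 includes Mdm2. The nearest ends of the Mdm2 and Lyz2 spans lie 406554 bases apart. Lyz2 itself had 7241, 7631 and 7073 CPM in ITGA5 fl/fl and 3965, 3588 and 4070 CPM in Myα5KO libraries (log2 fold change -0.92, SE 0.081, edgeR adjusted p 4.27e-05). Its paralog Lyz1, 5476 bases away, had 12.3, 15.1 and 15.8 CPM against 118, 80.3 and 112 CPM (2.84, SE 0.14, adjusted p 1.02e-07), and reads may be shared between these similar genes.

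Apart from both lysozyme genes, 15 tested genes lay within 1 Mb of Lyz2, and 2 of them were called, Mdm2 and Frs2, both lower. As Mdm2 was chosen on this difference and for its place here, the window is counted without it, with 1 of 14 genes called (7.14%) beside 8.75% of all genes tested. Frs2, an adaptor of fibroblast growth factor receptors 128797 bases from Lyz2 on the side away from Mdm2, fell from 48.7, 45.5 and 49.4 CPM to 36.8, 37.1 and 33.8 CPM (-0.42, SE 0.073, edgeR adjusted p 0.00398). Its fold change lay close to that of Mdm2. Yeats4, between Lyz2 and Frs2, had 0.12 (SE 0.097) and Cpsf6, the next gene on the Mdm2 side, 0.09 (SE 0.070), and neither was called. Cpm, a carboxypeptidase gene between Cpsf6 and Mdm2, had 5.03, 5.52 and 5.63 CPM in ITGA5 fl/fl and 3.25, 4.17 and 3.73 CPM in Myα5KO libraries (-0.54, SE 0.17, adjusted p 0.06), and missed the threshold. Groups did not overlap for 6 of the 14 genes, 4 lower (Frs2 and Cpm among them) and 2 higher, beside 28.6% of all genes tested.

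The other 10 genes of the window were not called. Slc35e3, Nup107 and Rap1b, beyond Mdm2, had fold changes of 0.25, 0.09 and -0.14, and Mdm1, the last inside the window on that side at 859490 bases, had 0.14. On the other side, Cct2, 4933412E12Rik, Rab3ip, 5330438D12Rik, Cnot2 and Ptprb had 0.00, 0.15, -0.15, 0.26, 0.05 and -0.003, and Ptprb was the last inside at 887796 bases. Ptprr, at 1002399 bases, was the first outside, with 0.02. The median of the 15, Mdm2 included, was 0.05, against 0.02 over all genes. From 1 to 5 Mb, 3 of 30 tested genes were called, all lower, Tbc1d15 (-0.38), Rassf3 (-0.35) and Tbk1 (-0.27), which are named after their values were seen. The median of these 30 was -0.09. Fold changes were negative for 21 of the 30 and for 6 of the 15 inside the window, beside 6854 of all 14522 genes tested. Groups did not overlap for 9 of the 30, 8 lower and 1 higher, beside 28.6% of all genes tested. From 5 to 20 Mb 7.5% of 120 genes were called, over the rest of the chromosome 12.2% of 531 and on other chromosomes 8.61% of 13824. The part of the Cre-carrying segment in the Mdm2 and Frs2 values cannot be told apart from that of Itga5 loss.

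**Figure D4:**
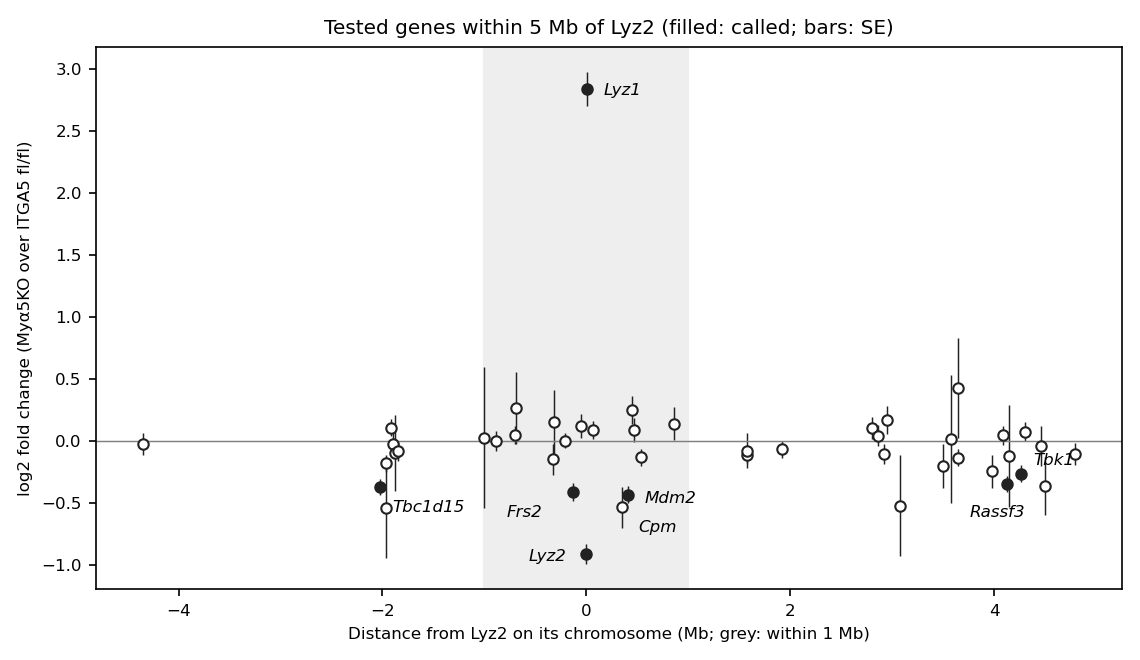
Log2 fold change, Myα5KO over ITGA5 fl/fl (y axis, bars are the SE), of the tested genes within 5 Mb of Lyz2 against their distance from it (x axis, Mb), with called genes filled and the 1 Mb window in grey. Mdm2 (-0.44) and Frs2 (-0.42) are called among neighbours most of which lie near 0, and the 3 called genes outside the window are also lower.

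Per gene length, as deposited FPKM (counts per length, scaled by library), the order of the 9 genes was nearly the same in both groups. In ITGA5 fl/fl macrophages Cdkn1a had the highest level, 245 ± 11.4 FPKM, followed by Mdm2 (82.2 ± 2.14), Bax (54.3 ± 0.348), Ccng1 (25.6 ± 0.869), Trp53 (17.3 ± 1.24), Bbc3 (9.43 ± 1.03), Sesn1 (7.26 ± 0.607), Phlda3 (4.20 ± 0.472) and Zmat3 (1.35 ± 0.126; SD, n = 3 each). Neighbours in this order did not overlap between libraries. In Myα5KO macrophages Cdkn1a had 201 ± 15.1, Mdm2 60.5 ± 3.40 and Bax 54.2 ± 3.67 FPKM, and the lowest Mdm2 value (57.9 FPKM) lay just above the highest Bax value (57.1 FPKM). Sesn1 (12.5 ± 1.83 FPKM) moved above Bbc3 (11.4 ± 3.04 FPKM), and those neighbours overlapped.

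Ratios within a library do not depend on its scaling. Mdm2 stood at 4.89, 4.50 and 4.90 times the Trp53 level (FPKM) in ITGA5 fl/fl and at 3.63, 3.83 and 3.13 times in Myα5KO libraries. Over Mdm4, Mdm2 stood at 9.98, 10.7 and 10.2 times against 7.17, 8.11 and 6.77 times. Relative to the gene it feeds back on and to its own relative, Mdm2 was thus lower in each Myα5KO library. The ratio of Cdkn1a to Mdm2, 2.96, 2.87 and 3.13 in ITGA5 fl/fl, was 3.23, 3.39 and 3.33 in Myα5KO libraries, so Mdm2 was the more reduced of the pair. As ratios of genes chosen on this contrast, these are descriptions.

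Among the genes whose log2 CPM followed that of Mdm2 most closely over the 6 libraries, out of 8300 with a mean of at least 10 CPM, were Pi4k2b, Cd274, Csnk1d and Rusc2 (Pearson r from 0.9965 to 0.997). All 4 had lower values in every Myα5KO library. Cd274, which encodes the immune checkpoint ligand PD-L1, had 149, 165 and 164 CPM in ITGA5 fl/fl and 85.8, 96.2 and 86.6 CPM in Myα5KO libraries (log2 fold change -0.83, SE 0.071). Rusc2, Pi4k2b and Csnk1d had log2 fold changes of -0.42, -0.34 and -0.16. None of these 4 lies on chromosome 10. These genes were picked by their likeness to a gene chosen on this contrast, so their differences are given without a test. With 2 groups of 3 libraries a high r follows largely from the difference between the groups, and 231 genes reached at least 0.95. Cdkn1a (r 0.953) ranked 207th and Frs2 (r 0.953) 208th.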

How the data were processed

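RNA-seq libraries of 3 ITGA5 fl/fl and 3 Myα5KO hearts were grouped by their titles. Per the submitters' processing notes, TopHat2 2.0.9, HTSeq 0.6.1 and Cufflinks 2.1.1 were used with build GRCm38. The deposited counts are raw HTSeq read numbers, with strand and multi-mapping settings not given in the sources used here, so overlapping and near-identical genes are uncertain. The FPKM values deposited by the authors equal the count over gene length and a constant per library, which followed the DESeq2 size factor. Columns beside these hold gene coordinates and lengths.

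Genes were tested on counts by the edgeR 4.0.16 quasi-likelihood method (TMM, default filter with minimum count 10 and minimum total count 15, 14522 genes kept, two-sided, Benjamini-Hochberg). A gene is called where its adjusted p is at most 0.05. Positive log2 fold changes mean a higher level in Myα5KO, and SE is the fold change over the root of its F statistic. The members and all lists were chosen with earlier results of these data known. Named are the members, Itga5, Lyz2, Lyz1, tested genes within 1 Mb of Lyz2, called genes of the target, regulator and DREAM lists, the highest expressed gene of a list, and the 5 genes most like Mdm2, of which 1 is not reported here. Other named genes were chosen after their values were seen. Alternatives were DESeq2 1.42.0, limma-voom (limma 3.58.1), 3 other scalings, 2 other filters, limma on log2(FPKM + 1) and log2(FPKM + 0.1) for genes reaching FPKM 1 in 3 or more libraries, a replicate block, each library left out and a 2 Mb window. A single left-out library leaves a group of 2. Of the scripts, only the edgeR test with TMM and the default filter was tried on simulated counts. Counts are of amplified reads. The SE and intervals rest on dispersions estimated over the replicate libraries of each group, so they include variation between libraries beside counting error. The libraries came from separate hearts per the methods of the study.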

Additional observations from a re-analysis of the deposited data

How the results depend on the processing

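Mdm2 and Sesn1 kept their direction and their call under all 16 alternatives, with log2 fold changes from -0.48 to -0.36 and from 0.66 to 0.88. Of the 9 genes, 2 to 4 were called under each, and within 1 Mb (or 2 Mb) of Lyz2 always 2. Cdkn1a was called in 8 of 16. All genes called numbered 472 on log2(FPKM + 1) and 448 on log2(FPKM + 0.1), other p53 targets 3 and 3, regulators 1 and 1, and DREAM genes 1 and 1, with 11495 genes tested there. Library-size scaling called 6 regulators and 1 DREAM gene, no count filter 4 regulators, and DESeq2 1 regulator. When single libraries were left out, 616 to 1091 genes were called in all, 6 to 8 other p53 targets and 0 to 2 regulators. The total was 723, 616 and 819 without ITGA5 fl/fl replicates 2 and 3 and Myα5KO replicate 2. The cause was not tested.

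Genes near 0 changed sign. Bax was -0.012 with 10 counts in every library, -0.002 with DESeq2, -0.004 on both FPKM scales and with upper quartile scaling, and -0.007 with median-ratio scaling. Cct2 was -0.016, -0.005, -0.004, -0.008 and -0.01 in the same order. Trp53 was 0.079 with library-size scaling and 0.005 without a filter, and Ptprb 0.078 and 0.004, and 0.002 with limma-voom. With single libraries left out, Bax ranged from -0.042 to 0.057, Cct2 from -0.026 to 0.03, Trp53 from -0.064 to 0.06, Ptprb from -0.074 to 0.08 and 4933412E12Rik from -0.058 to 0.35.

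Replicate numbers are shared between the groups, but deviations of same-numbered libraries correlated at 0.051, -0.058 and 0.043, so the numbers were not taken as pairs. With the number as a replicate block, 1181 genes, 8 other p53 targets and 0 regulators were called, and Mdm2 was -0.44. Genes of few counts can have wide intervals at this depth, but spread between libraries widens them too. Phlda3, with 88 to 227 counts per library (SE 0.18), ranged from 7.03 to 11.9 CPM in Myα5KO. Gdf15, with 4392 to 10691 counts, had an SE of 0.23. The part of depth in these intervals was not tested.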
